A study of Mus musculus with 25 samples.

Results

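The sinusoidal endothelial genes described here were 10 genes known as markers of the cells that line the liver's sinusoids: Clec4g, Stab1, Stab2, Lyve1, Fcgr2b, Oit3, Dnase1l3, Gpr182, Plvap and Emcn. Each was taken from the probe sets annotated to that symbol alone, and a gene with several sets was represented by the one with the highest mean log2 intensity over the 14 stages. All 10 were measured, out of 18194 genes in the table. They were followed in whole livers of C57/B6 mice, untreated and without any engineered allele named in the labels, on Affymetrix arrays at 14 stages. The postnatal class held 6 pools: the day of birth (Day0), days 3, 7, 14 and 21 (Day3 to Day21), and adult animals at 18 weeks. The fetal class held 8 pools, 1 for each day from embryonic day 11.5 (E11.5) to E18.5. A pool combined 3 livers from E16.5 onwards, and before that 12 (E11.5), 9 (E12.5, E13.5) or 6 (E14.5, E15.5), so no animal was measured on its own. Technical repeats gave 2 arrays at 11 stages and 1 array at E18.5, Day7 and Day14, or 25 arrays in all.

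Liver sinusoidal endothelial cells form a fenestrated lining without a continuous basement membrane, between the blood and the hepatocytes. They take up hyaluronan, modified proteins and immune complexes through scavenger, lectin and Fc receptors, and they acquire this specialised state during liver development. In the fetus the same vessels run through a liver that is also a site of blood formation. In bulk tissue, fewer cells of a type and less RNA per cell cannot be told apart, and this holds for every level given below.

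Values are log2 intensities, on which 1 unit is a 2-fold difference. Array medians ranged from 5.41 to 5.53, and technical repeats were close, with r = 0.986 to 0.996 across genes. A call needed a change of at least 1 log2 unit and an adjusted p under 0.05 in limma, with Benjamini-Hochberg adjustment over the 18194 genes. Since a stage was 1 pool, stages served as the replicates of a class, and the error includes how the class itself developed. E18.5 stood apart in skeletal muscle genes: the mean of 8 such genes was 7.09 there, against 5.10 to 5.57 at the other 13 stages. Acta1, skeletal muscle actin, was at 9.56 at E18.5 and at 5.25 to 6.03 elsewhere.

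Endothelium in general was present at every stage. The mean of 16 pan-endothelial genes lay between 6.62 and 7.11 in the postnatal pools and between 6.46 and 7.03 in the fetal pools. Kdr, the main receptor for VEGF-A, stayed between 7.38 and 8.28 in the postnatal pools and between 7.20 and 8.0 in the fetal pools. The label of the 10 genes could not be checked against sorted cells, and several of them are also made elsewhere: Fcgr2b in B lymphocytes and macrophages, Stab1 in macrophages, Lyve1 in lymphatic vessels and Dnase1l3 in macrophages and dendritic cells. The mean of 5 lymphatic markers was 6.77 to 7.06 in postnatal pools and 6.60 to 7.07 in fetal pools. None was called between the classes, against 5.01% of all genes called higher and 4.5% lower. Mmrn1 stayed between 4.46 and 4.72 at all 14 stages, below the array medians, while class means of the other 4 lay above them: Reln at 9.97 in postnatal and 10.24 in fetal pools, Flt4 at 7.57 and 7.27, Pdpn at 5.95 and 6.17, and Prox1 at 6.62 and 5.87. Flt4 was also among the 23 other sinusoidal genes described below. Prox1, a transcription factor that hepatocytes also make, was 0.75 ± 0.16 higher in postnatal pools (limma, adjusted p = 0.007), and the part of lymphatic vessels in the Lyve1 values was not tested.

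**Figure D1:**
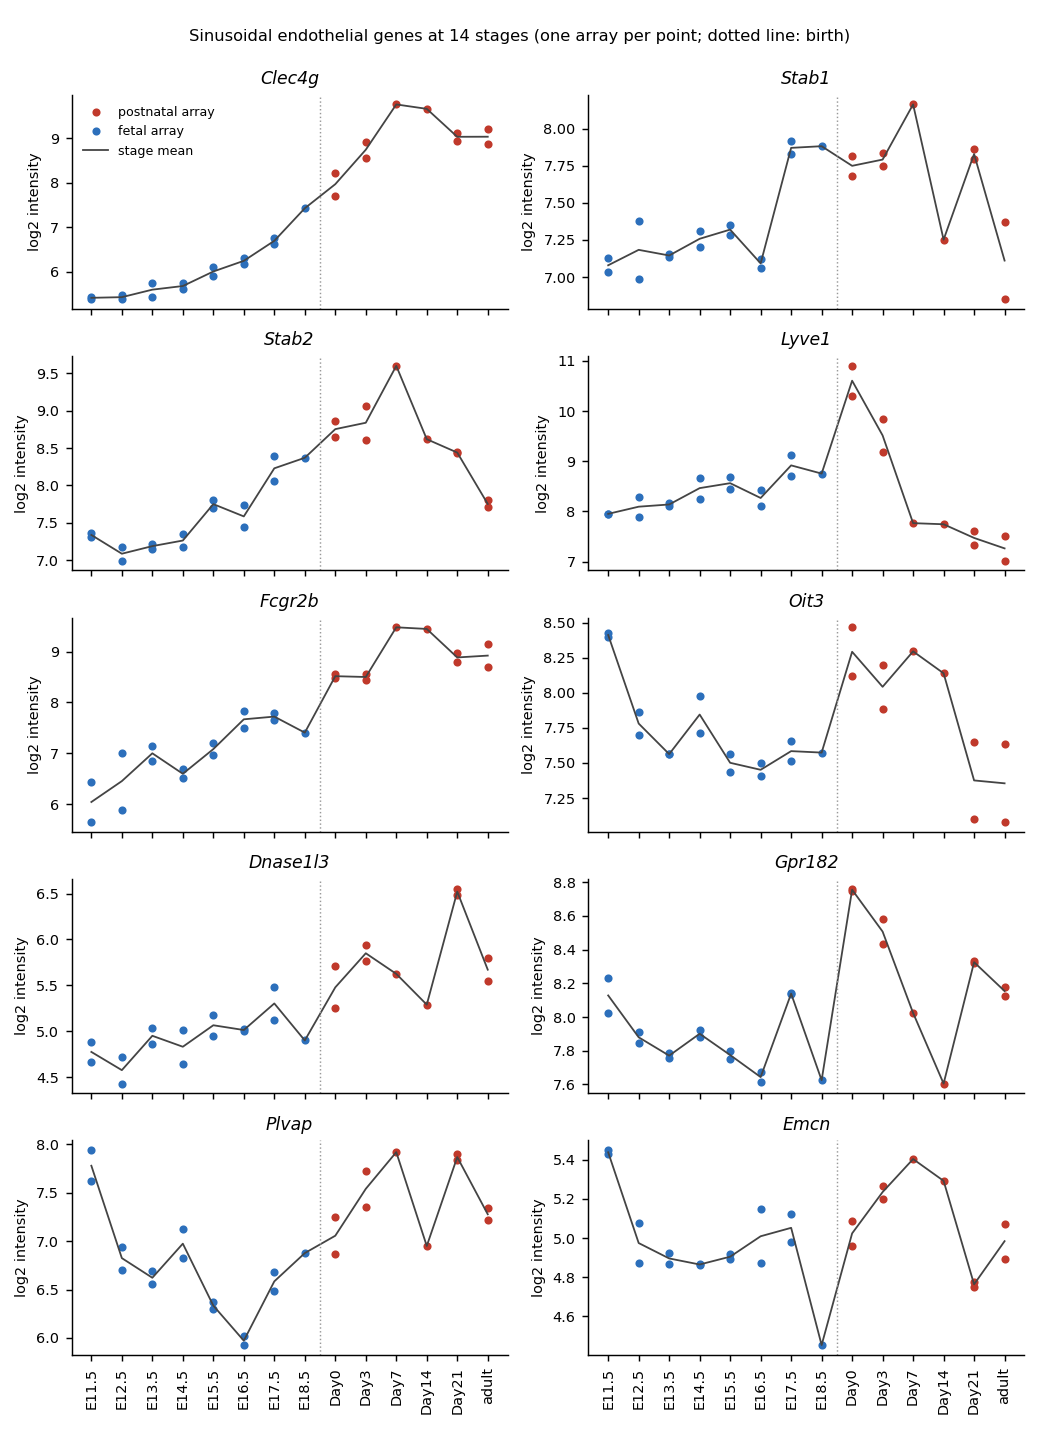
Log2 intensity of the 10 genes on each of the 25 arrays (points, red postnatal and blue fetal) with the stage mean (line) over 14 stages in order of age; the dotted line marks birth and each panel has its own vertical scale. Clec4g climbed to 9.76 on Day7, Lyve1 peaked at 10.61 on Day0, and Oit3, Plvap and Emcn had a high point at E11.5.

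Clec4g, Fcgr2b and Stab2 moved most alike among the 10 genes. Over the 14 stage means, Clec4g correlated with Fcgr2b at r = 0.96 and with Stab2 at r = 0.84, and Fcgr2b with Stab2 at r = 0.82. The stretches around the start sites of these 3 genes are shown because their courses ran together; RefSeq promoters on GRCm38.p6 were given for 5 of the 10 genes, also including Stab1 and Emcn. Each window runs 5' to 3' on the gene's strand, from 250 bases before the start site to 50 after it. They lie at chr8:3720602-3720901 (Clec4g), chr1:170976022-170976321 (Fcgr2b) and chr10:87007893-87008192 (Stab2), all on the minus strand. Capitals mark the ETS motifs GGAAGT or GGAAAT read on either strand. These are longer forms of GGAA, the core letters bound by ETS factors, a family with many endothelial regulators. Other GGAA stretches, which all 3 windows hold, are not marked.

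Clec4g promoter: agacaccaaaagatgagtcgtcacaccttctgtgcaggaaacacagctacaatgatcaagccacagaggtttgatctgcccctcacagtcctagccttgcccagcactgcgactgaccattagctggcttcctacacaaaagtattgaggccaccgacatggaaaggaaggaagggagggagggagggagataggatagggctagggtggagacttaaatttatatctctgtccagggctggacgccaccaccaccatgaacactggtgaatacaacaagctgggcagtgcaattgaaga
Fcgr2b promoter: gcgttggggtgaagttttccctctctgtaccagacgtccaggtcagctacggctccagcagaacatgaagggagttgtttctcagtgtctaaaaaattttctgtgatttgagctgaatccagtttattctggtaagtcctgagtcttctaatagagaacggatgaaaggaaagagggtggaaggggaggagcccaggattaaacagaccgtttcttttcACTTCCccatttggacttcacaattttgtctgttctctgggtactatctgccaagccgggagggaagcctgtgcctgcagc
Stab2 promoter: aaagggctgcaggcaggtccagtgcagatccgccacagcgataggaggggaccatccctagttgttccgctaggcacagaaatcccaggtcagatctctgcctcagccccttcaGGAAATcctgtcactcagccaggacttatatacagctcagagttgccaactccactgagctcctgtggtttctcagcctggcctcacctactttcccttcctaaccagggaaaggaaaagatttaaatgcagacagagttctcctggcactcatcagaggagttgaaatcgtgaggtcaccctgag

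GGAAGT lay on the opposite strand of the Fcgr2b window, 31 bases before the start site, and GGAAAT on the gene's strand of the Stab2 window, 136 bases before it. GGAAAT was also found in the windows of Stab1 and Emcn. Thus 4 of the 5 windows held GGAAGT or GGAAAT, against 37.1% of all 32851 promoters, and other GGAA stretches were not counted. The GATA motifs AGATAA and TGATAA were searched on both strands as well: TGATAA occurred in Emcn alone, and 18.6% of all promoters held at least 1 of them. The forkhead motif TGTTTAC (3.65% of all promoters) and the E-box CACGTG (7.15%) were in none of the 5 windows. A match is a description of the letters in the window and not a bound site.

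The first comparison asked which sinusoidal genes differ between the liver after birth and the fetal liver. The 3 genes Clec4g, Fcgr2b and Stab2, a lectin, an Fc receptor and a scavenger receptor, were higher in postnatal liver, by 7.84-fold, 3.90-fold and 2.09-fold. Thus 3 of the 10 genes were called higher, against 5.01% of all genes. None was called lower, against 4.5% of all genes, and at an unadjusted p under 0.05 in limma 6 of the 10 were higher and 0 lower, against 17% and 17.2% of all genes. The median difference of the 10 was 0.53, against 0.01 over all genes.

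Clec4g encodes LSECtin, a C-type lectin of sinusoidal endothelium that binds glycans on cells and viruses. It read 7.97, 9.04 and 9.76 as the lowest, median and highest of the 6 postnatal pools, and 5.42, 5.85 and 7.43 among the 8 fetal pools. Every postnatal pool was above every fetal pool. The difference was 2.97 ± 0.35 (SE, 6 against 8 pools; limma, adjusted p = 0.00021). A second probe set of Clec4g, 1431575_at, was flat, with means of 6.12 in postnatal and 6.11 in fetal pools. The set used averaged 9.04 in postnatal and 6.06 in fetal pools, so its postnatal values decided the choice between the sets. Averaging both sets gave a difference of 1.49.

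Fcgr2b is the inhibitory receptor for the Fc part of IgG, through which sinusoidal cells clear immune complexes. Its postnatal pools had a lowest, median and highest value of 8.50, 8.90 and 9.48, and its fetal pools of 6.04, 7.04 and 7.72. Again the classes did not overlap, and the difference was 1.96 ± 0.27 (limma, adjusted p = 0.0006). Genes whose postnatal pools all lay above all fetal pools made up 2.52% of the table, and 2 of the 10, Clec4g and Fcgr2b, were among them. The size depended on the probe set: the set used, 1435477_s_at, had a mean over the stages of 7.84, barely above the 7.78 of 1435476_a_at, which differed between postnatal and fetal pools by 0.65. Of the other sets of Fcgr2b, 1451941_a_at differed by 1.98, 1455332_x_at by 0.98 and the dim 1447622_at by -0.28. With sets whose names end in _s_at or _x_at left out, Fcgr2b was at 0.65 and was no longer called.

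**Figure D2:**
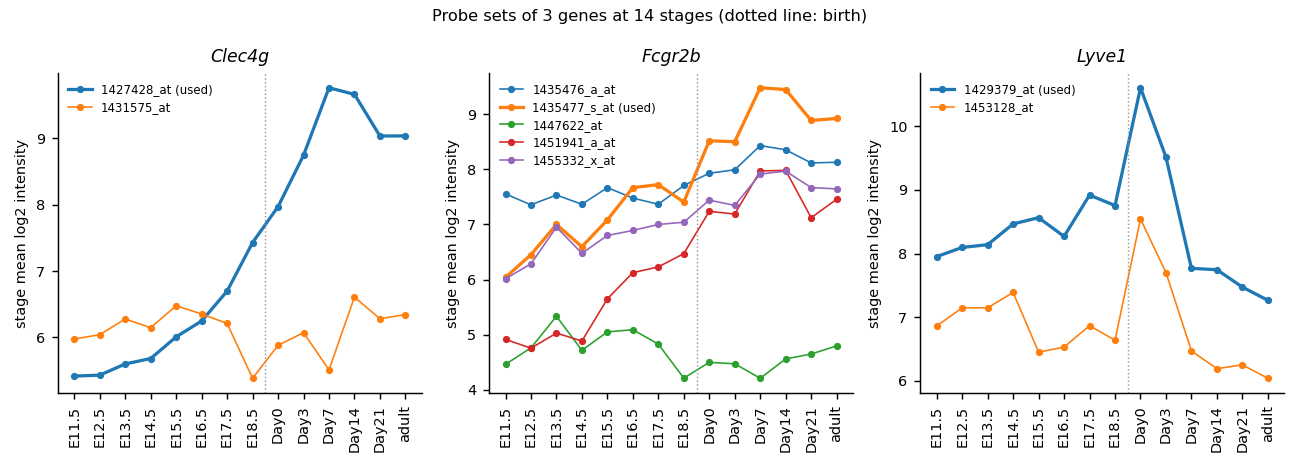
Stage means of the log2 intensity of every probe set of Clec4g (2 sets), Fcgr2b (5 sets) and Lyve1 (2 sets) over 14 stages, with the set used drawn as the thicker line and birth as a dotted line. The second set of Clec4g stayed between 5.39 and 6.61, the sets of Fcgr2b differed in slope, and both sets of Lyve1 peaked on Day0.

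Stab2, stabilin-2, is the main scavenger receptor for hyaluronan in the sinusoid. Its postnatal pools ran from 7.75 over a median of 8.69 to 9.60, and its fetal pools from 7.09 over 7.46 to 8.37. The classes overlapped, since the adult pool (7.75) lay below E17.5 (8.23) and E18.5 (8.37). The difference was 1.07 ± 0.27 (limma, adjusted p = 0.014), close to the threshold of 1 log2 unit. It was 0.99 without the E12.5 pool, 0.88 without the Day7 pool and 0.95 without the stages that had 1 array, and the call was lost in each case.

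Dnase1l3, a secreted nuclease that degrades DNA in chromatin, was 0.81 ± 0.17 higher in postnatal pools (adjusted p = 0.0048), below the threshold of size. It was a dim probe set, at 5.29 to 6.52 in postnatal pools and 4.58 to 5.30 in fetal pools, and the table holds no detection calls. Plvap, the protein of the diaphragms that span endothelial fenestrae and caveolae, differed by 0.69 ± 0.25 (adjusted p = 0.064). Gpr182, a receptor of endothelial cells that binds chemokines, differed by 0.37 ± 0.15 (adjusted p = 0.11). Stab1, the scavenger receptor stabilin-1, differed by 0.30 ± 0.18, Oit3, a protein with a zona pellucida domain, by 0.20 ± 0.19, and Emcn, the endothelial sialomucin endomucin, by 0.17 ± 0.13. Lyve1, a hyaluronan receptor, had means of 8.40 in postnatal and 8.39 in fetal pools, with SDs of 1.35 (n = 6) and 0.34 (n = 8).

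**Figure D3:**
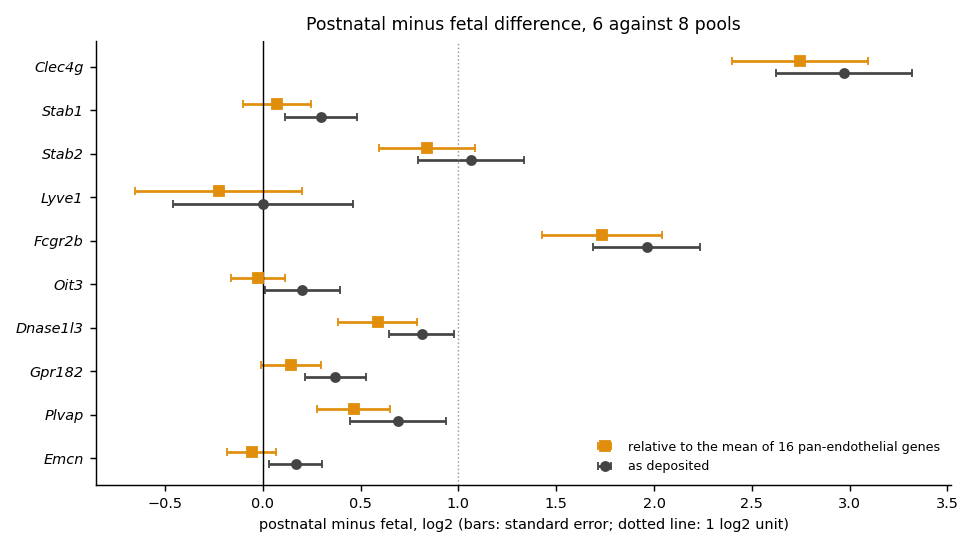
Postnatal minus fetal difference in log2 units (horizontal axis, bars are standard errors) of the 10 genes, as deposited (circles) and after the mean of 16 pan-endothelial genes was subtracted in each pool (squares). Clec4g and Fcgr2b lie beyond 1 log2 unit on both scales, Stab2 at 1.07 as deposited and 0.84 relative to the pan-endothelial mean.

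The same comparison was made relative to endothelial genes in general, by subtracting the mean of the 16 pan-endothelial genes in each pool from all genes. Clec4g was 2.75 ± 0.35 higher on this scale (adjusted p = 0.00015) and Fcgr2b 1.74 ± 0.31 (adjusted p = 0.00082). These were 2 of the 10 genes, against 3.91% of all genes called higher. None was called lower, against 7.37% of all genes, and at an unadjusted p under 0.05 in limma 5 were higher and 0 lower, against 8.05% and 32.4% of all genes. Stab2 was at 0.84 ± 0.24 (adjusted p = 0.016) and Dnase1l3 at 0.59 ± 0.20 (adjusted p = 0.036), both under 1 log2 unit. Fcgr2b was at 0.41 on this scale without the _s_at and _x_at sets and at 0.87 with all sets averaged, and was then not called.

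Within the fetal period the same 3 genes climbed. From E11.5 to E18.5 the fitted change was 1.89 ± 0.26 for Clec4g (adjusted p = 0.002), 1.53 ± 0.28 for Fcgr2b (adjusted p = 0.0058) and 1.22 ± 0.24 for Stab2 (adjusted p = 0.0076), over 8 pools in limma. These 3 of 10 compare with 4.4% of all genes called higher; none of the 10 was called lower, against 12% of all genes. At an unadjusted p under 0.05, 6 of the 10 were higher, against 19.1% of all genes, and 2 lower, near the 24.3% of all genes. Clec4g was higher at each fetal stage than at the one before, with 5.42, 5.43, 5.60, 5.68, 6.01, 6.25, 6.70 and 7.43, though the first step was 0.015 ± 0.17. Its arrays at E11.5 and E12.5 read 5.38 to 5.48, at about the medians of those arrays (5.41 to 5.47), and the table holds no detection calls. Fcgr2b read 6.04, 6.45, 7.00, 6.60, 7.08, 7.67, 7.72 and 7.41, and its repeat arrays at E12.5 differed by more than its neighbouring stages did, at 5.89 and 7.01. Without the _s_at and _x_at sets the fetal change of Fcgr2b was 0.11, and with all sets averaged Clec4g was at 0.83 and Fcgr2b at 0.85, uncalled in each case. Without the E18.5 pool the fetal changes were 1.47 for Clec4g, 1.89 for Fcgr2b and 1.06 for Stab2, and all 3 remained called.

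Lyve1 and Stab1 passed the test but not the size threshold, with fitted fetal changes of 0.85 ± 0.18 (adjusted p = 0.0098) and 0.75 ± 0.22 (adjusted p = 0.037). Stab1 stayed between 7.08 and 7.32 up to E16.5 and was at 7.87 and 7.88 at E17.5 and E18.5. Under quantile normalisation, and with housekeeping genes set equal, both passed the size threshold and 5 of the 10 were called higher, against 5.23% of all genes under quantile normalisation and 11% under housekeeping scaling; none was lower, against 7.37% and 5.51%. The 13 housekeeping genes were not constant as deposited, with a median fitted fetal change of -0.65, against 0.04 over all genes. Housekeeping scaling moved the median of all genes by 0.47 log2 units over fetal life. The shift under this scaling was 0.12 between postnatal and fetal pools and 0.35 over the postnatal course. For the fetal course the share of called genes that were higher was 66.6% under it and 41.5% under quantile normalisation, against 26.9% as deposited.

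Plvap, Oit3 and Emcn had negative fitted changes over fetal life that did not pass the test. Plvap read 7.78 at E11.5 and 5.97 at E16.5, Oit3 8.41 at E11.5 and 7.45 at E16.5, and Emcn 5.44 at E11.5 and 4.45 at E18.5. Their fitted fetal changes were -0.84 ± 0.45 (adjusted p = 0.18), -0.63 ± 0.24 (adjusted p = 0.079) and -0.51 ± 0.22 (adjusted p = 0.11). Each of the 3 had its highest fetal value at E11.5, the first stage sampled, where the mean of the pan-endothelial genes also had its highest fetal value, 7.03. Over the 8 fetal pools Oit3 and Plvap correlated at r = 0.93. Emcn read 5.45 and 5.43 on the E11.5 arrays, just above their median log2 intensities of 5.43 and 5.41. At the other stages it lay below the array medians, with values of 4.45 to 5.40. Gpr182 changed by -0.23 ± 0.19 over fetal life, and its sign turned to 0.19 under quantile normalisation and 0.24 under housekeeping scaling.

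At birth Lyve1 made the largest step of the 10 genes. Its Day0 arrays read 10.90 and 10.31, against 8.76 on the E18.5 array, a step of 1.85 ± 0.31 or 3.61-fold (limma, adjusted p = 0.0005). Gpr182 read 8.76 and 8.75 on Day0, against 7.62 at E18.5, a step of 1.13 ± 0.10 (adjusted p = 1.96e-06). Fcgr2b read 8.55 and 8.48 on Day0, against 7.41 at E18.5, a step of 1.11 ± 0.36 (adjusted p = 0.034) that most alternatives lost. So 3 of the 10 were called higher at birth, against 3.63% of all genes, and none lower, against 2.25%; at an unadjusted p under 0.05, 7 were higher and 0 lower, against 18.6% and 17.6%. These errors are technical, each stage being 1 pool, and the single E18.5 array was assumed to vary like the stages with 2.

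The E18.5 array is also the one with high skeletal muscle genes, and the part this plays in the birth steps was not tested. Against E17.5 in its place, Day0 was higher by 1.69 for Lyve1, 0.62 for Gpr182 and 0.79 for Fcgr2b, of which Lyve1 alone remained called. Clec4g was called on that comparison, at 1.27, while against E18.5 its step was 0.54 ± 0.21 (adjusted p = 0.071). The Fcgr2b step lost its call in 8 of 11 alternatives. It was at 0.22 without the _s_at and _x_at sets, where 1435476_a_at read 7.93 on Day0 against 7.71 at E18.5, and at 0.56 with all sets averaged. Besides the 0.79 against E17.5, its other lost values were 0.90 under quantile normalisation, 1.03 under housekeeping scaling, 0.94 with the repeat number as a block, and 1.08 and 1.14 without the first and the second Day0 array. The first array read Fcgr2b higher than the second at 1 of the 11 stages with 2 arrays, and E18.5 has a first array alone. Emcn stepped by 0.57 ± 0.12 (adjusted p = 0.0036) and Oit3 by 0.72 ± 0.23 (adjusted p = 0.034), under the size threshold. Emcn had its lowest value of all stages at E18.5, and against E17.5 its step was -0.03.

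After birth, Lyve1, Clec4g and Dnase1l3 made called steps between neighbouring stages. Lyve1 dropped to 9.52 on Day3 and 7.77 on Day7, and then read 7.74, 7.47 and 7.26 up to the adult stage, its lowest. Its steps were -1.09 on Day3 against Day0 and -1.75 on Day7 against Day3, both called; 1.1% of all genes were called lower on the first step and 2.84% on the second. Clec4g rose by 1.02 on Day7 against Day3, as did 3.32% of all genes by the same rule, and reached its maximum of 9.76 there. Dnase1l3 rose by 1.23 on Day21 against Day14, where 3.03% of all genes were called higher. Its repeat arrays of Day21 agreed at 6.49 and 6.55, against 5.29 on the single array of Day14. Neighbouring steps other than birth and Day21 to adult were compared after the data had been seen.

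Day7 was the highest stage of Clec4g (9.76), Fcgr2b (9.48), Stab2 (9.60), Stab1 (8.16) and Plvap (7.92). Day14 was lower than Day7 for Stab2 (8.62), Stab1 (7.25) and Plvap (6.95), steps of -0.98, -0.91 and -0.97, and none was called. Both stages had 1 array. In contrast Clec4g (9.66) and Fcgr2b (9.45) kept nearly their Day7 level on Day14. Means of other lists were highest on Day7 as well. The pan-endothelial mean was 7.11 on Day7 and 6.80 on Day14, and the stellate and mesenchymal mean 8.25 and 8.06. The hepatocyte mean was higher on Day14, at 13.31 against 13.09. The mean intensity of the array was 205 on Day7 and 166 on Day14, and its part in these values was not tested.

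Over the 6 postnatal pools as a linear course on log2(day + 1), none of the 10 genes was called in limma, and neither was any of all genes (0%). At an unadjusted p under 0.05, 0 of the 10 were higher and 2 lower: Lyve1 at -3.55 ± 0.76 (adjusted p = 0.18) and Oit3 at -1.02 ± 0.35 (adjusted p = 0.28). Among all genes 3.72% were higher and 10.2% lower at that threshold. From Day21 to the adult stage none of the 10 was called, against 0.61% of all genes called higher and 1.2% called lower, while at an unadjusted p under 0.05, 1 was higher, near the 7.35% of all genes, and 4 lower, against 11.4%. The 4 had an adjusted p under 0.05 but stayed under 1 log2 unit: Dnase1l3 at -0.85 ± 0.17, Stab1 at -0.72 ± 0.14, Stab2 at -0.69 ± 0.15 and Plvap at -0.59 ± 0.16, with technical errors. Clec4g differed by 0.0018 ± 0.17, with 8.87 and 9.21 on the adult arrays, against 8.95 and 9.12 on the Day21 arrays. Against Day14 in place of Day21 the adult values of Dnase1l3 and Plvap were higher by 0.38 and 0.33.

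A smooth course over all 14 stages was called for 6 of the 10 genes, against 29.8% of all genes. The fitted range was 3.84 for Clec4g, 2.86 for Fcgr2b, 2.45 for Lyve1, 1.86 for Stab2, 1.35 for Plvap and 1.24 for Dnase1l3, each at an adjusted p under 0.05 of the F test in limma. Oit3 (0.98) and Stab1 (0.79) passed the F test below the size threshold, and Gpr182 (0.48, adjusted p = 0.39) and Emcn (0.51, adjusted p = 0.27) did not pass it. Without the Day21 pool Dnase1l3 was at 0.89 and no longer called. Probe set choice also ended calls: Fcgr2b was at 0.83 without the _s_at and _x_at sets, and with all sets averaged Lyve1 was at 2.02 (adjusted p = 0.053) and Dnase1l3 at 0.67. Oit3 was called under 8 of 23 alternatives and Stab1 under 1.

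The 10 genes did not share 1 course. Of their 45 pairs, 38 correlated positively over the 14 stage means, with a median r of 0.38 and a range of -0.21 to 0.96. These correlations are descriptions: the points share pools, arrays and scaling, and the first principal component of all genes, which follows development, holds 63.2% of the variance. Stab1 and Stab2, the paired scavenger receptors, correlated at r = 0.84 and Oit3 and Emcn at 0.72. Lyve1 stood apart from Clec4g (r = -0.12) over all stages. The pair correlated at 0.81 over the 8 fetal pools and at -0.80 over the 6 postnatal pools, the stages at which Lyve1 dropped while Clec4g reached its maximum.

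**Figure D4:**
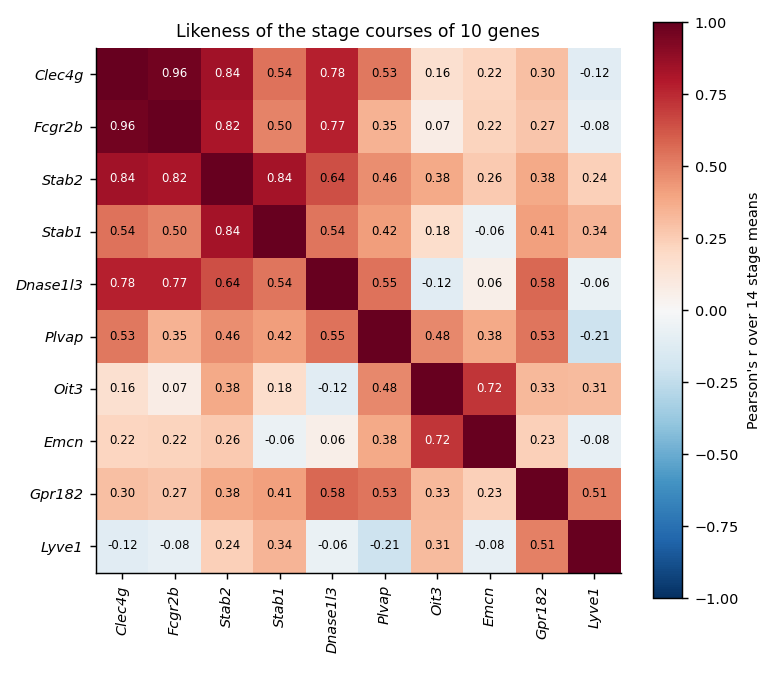
Pearson's r between the stage courses of the 10 genes over 14 stage means, from blue (negative) to red (positive). Clec4g, Fcgr2b and Stab2 form the block with r of 0.82 to 0.96, and the row of Lyve1 runs from -0.21 with Plvap to 0.51 with Gpr182.

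Among all genes with a range of at least 2 log2 units, those with courses most like Clec4g were Pglyrp2 (r = 0.99), Vsig4 (r = 0.99) and Adtrp (r = 0.99), over 14 stage means. Those most like Fcgr2b were 1110032A03Rik, Aadat and Bbox1 (r = 0.97 to 0.98), and those most like Stab2 were Adgre5, Acadl and Serpinf2 (r = 0.96 to 0.98). For Dnase1l3 they were Nr1i2, Stard5 and Parp16 (r = 0.94 to 0.96), for Plvap Adgrl2, Tgfbi and Ptprf (r = 0.91 to 0.94) and for Lyve1 Csf2rb, Pou2af1 and Clca3a1 (r = 0.86 to 0.89). Stab1 was most like Prxl2a, Cdh1 and Ptprc (r = 0.83 to 0.86), Oit3 like Rhoc, Elk3 and Bhlhb9 (r = 0.80 to 0.86), Gpr182 like Rapgef2, Lrrfip1 and Cirbp (r = 0.81 to 0.84) and Emcn like Lipt2, Coa3 and Rcbtb2 (r = 0.73 to 0.77).

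Several macrophage genes moved with the 3 climbing genes. Of 17 macrophage and Kupffer cell markers, 4 were called higher in postnatal liver, against 5.01% of all genes, with a median difference of 0.88. Over fetal life 12 were called higher, against 4.4% of all genes. Clec4f, a Kupffer cell lectin, differed by 2.92 ± 0.46 between postnatal and fetal pools and Vsig4, a complement receptor, by 3.39 ± 0.43. Of the 13 not called in that comparison, Adgre1 differed by 0.36 ± 0.27 and Lyz2 by 0.09 ± 0.74. The mean of the 17 lay between 7.65 and 9.21 in postnatal pools and between 6.31 and 8.30 in fetal pools, and correlated over the 14 stages with Stab2 at r = 0.95, with Fcgr2b at 0.83 and with Clec4g at 0.82. In the adult pool that mean was at 7.65, below its 8.30 at E18.5, and Stab2, at 7.75, was also below its 8.37. Clec4g (9.04) and Fcgr2b (8.92) were above their E18.5 values of 7.43 and 7.41. With the mean of the 17 subtracted from all genes in each pool, a scaling chosen after the data had been seen, Clec4g was still called higher, at 1.82. On that scale the median of all genes was -1.14, with 1.85% of them called higher and 74.7% called lower. Fcgr2b was at 0.81 and uncalled and Stab2 at -0.09. Lyve1, at -1.15, was called lower and lay at about the median of all genes. The part of macrophages in these results was not tested further.

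Markers of other cells were followed over the same stages. Of 9 B lymphocyte genes 5 were called higher over fetal life, against 4.4% of all genes. In postnatal against fetal pools 0 were called, against 5.01% of all genes called higher and 4.5% lower. Their mean was 5.29 to 5.91 in postnatal and 5.10 to 6.09 in fetal pools and correlated with Fcgr2b at r = 0.45. Of 8 hepatocyte genes 5 were called higher in postnatal pools, against 5.01% of all genes, and their mean correlated with Clec4g and with Fcgr2b at r = 0.91. Of 10 erythroid genes 9 were called lower in postnatal pools, against 4.5% of all genes, with a median difference of -3.11. The erythroid mean was 6.25 to 10.19 in postnatal and 9.81 to 11.39 in fetal pools. It correlated with Clec4g at r = -0.80, with Fcgr2b at -0.76 and with Stab2 at -0.43. Of 12 stellate and mesenchymal genes 4 were called higher in postnatal pools, against 5.01% of all genes. Over fetal life 3 were called lower, against 12%, and 1 higher, against 4.4%. The part of these cells in the results was not tested.

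**Figure D5:**
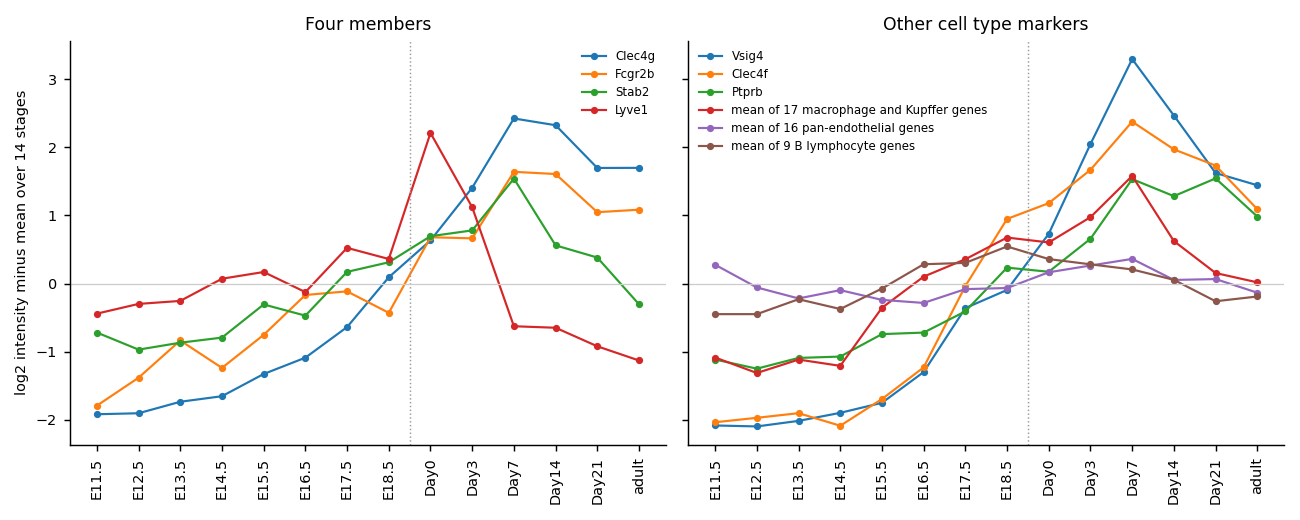
Log2 intensity minus its mean over 14 stages for Clec4g, Fcgr2b, Stab2 and Lyve1 (left) and for markers of other cells and 3 list means (right), with birth as a dotted line. Clec4g, Vsig4, Clec4f and the macrophage mean all peak on Day7, as does the pan-endothelial mean over a narrower range, and Lyve1 peaks on Day0.

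Other endothelial genes were followed in the same comparisons. Of the 16 pan-endothelial genes 1 was called higher in postnatal pools, near the 5.01% of all genes, and none lower, against 4.5%. It was Ptprb, a phosphatase of endothelial junctions, at 1.8 ± 0.26, and its course correlated with that of Clec4g at r = 0.99. Pecam1 (0.09 ± 0.18), Cdh5 (0.24 ± 0.17) and Kdr, given above, were not called. Of 23 other genes of sinusoidal endothelium 0 were called in that comparison, against 5.01% of all genes called higher and 4.5% lower. Their median was 0.29. Over fetal life 2 of the 23 were called higher, against 4.4% of all genes: the scavenger receptor Cd36 (3.59 ± 0.41) and the mannose receptor Mrc1 (1.47 ± 0.21). Another 2, a smaller share than the 12% of all genes, were called lower, Meis2 (-1.76 ± 0.44) and Gata4 (-1.73 ± 0.42), Gata4 being a transcription factor needed for sinusoidal identity. Both were highest at E11.5, Meis2 at 7.74 and Gata4 at 7.64. The means of 12 stellate and mesenchymal genes (7.83) and of the pan-endothelial genes (7.03) also had their highest fetal value there. Which cells the Meis2 and Gata4 values came from was not tested. At birth 3 of the 23 were called higher, against 3.63% of all genes: Ehd3 (1.16 ± 0.24), Cd36 (1.12 ± 0.29) and Msr1 (1.05 ± 0.16). Of the 17 macrophage and Kupffer cell markers 12 were called higher over fetal life, against 4.4% of all genes. At birth 0 of the 17 were called higher and 1 lower, against 3.63% and 2.25% of all genes. Which cells the Cd36, Mrc1 and Msr1 values came from was not tested either.

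Genes of capillary and large vessel endothelium were also followed. None of 15 was called in postnatal against fetal pools, against 5.01% of all genes called higher and 4.5% lower. Over fetal life 2 of the 15, near the 12% of all genes, were called lower, Podxl (-3.00 ± 0.53) and Cd34 (-2.02 ± 0.23). Vcam1 (1.5 ± 0.25) was the 1 called higher, near the 4.4% of all genes. Vwf, von Willebrand factor, was called higher at birth, at 1.78 ± 0.19, with 8.07 on Day0 against 6.29 at E18.5. It was the 1 of the 15 called at that step, against 3.63% of all genes called higher. Of 7 megakaryocyte genes 2 were called higher and 0 lower at that step, against 3.63% and 2.25% of all genes. Their mean was 8.12 at E18.5 and highest on Day0, at 8.55. Which cells the Vwf values came from was not tested. Of 16 vascular ligands and regulators 1, Vegfa, was called higher in postnatal pools (1.03 ± 0.12), near the 5.01% of all genes. Vegfc was the 1 called lower over fetal life (-1.52 ± 0.36), against 12% of all genes.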

How the data were processed

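RNA of pooled livers was hybridised to Affymetrix arrays. The authors deposited 1 table of 25 arrays and 45101 probe sets; its values are linear intensities, as read from the deposited table, and RMA was applied per the submitters' processing notes, with version and scaling not given in the sources used here. Log2 was taken of each intensity with no pseudocount, although the tests had been laid out for log2 values. Probe sets were named from the platform annotation: 34958 carried 1 symbol, 932 several and 9211 none. The set with the highest mean represented each of 18194 genes.

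Repeat arrays were averaged per stage. The postnatal against fetal difference, also after subtracting the pan-endothelial mean, the slopes over fetal days and over log2(day + 1), with 18 weeks taken as 126 days, and a spline in stage order (natural, 3 degrees of freedom) were fitted to the 14 stage means. Steps between neighbouring stages came from a fit of stage means to the 25 arrays. All fits used limma 3.58.1 (lmFit, eBayes) in R 4.3.3, over the whole table. They were also run on simulated data with noise drawn independently for each pool or array. The fit relative to pan-endothelial genes and the neighbouring steps other than birth and Day21 to adult were not simulated. Arrays carry no counting depth; their number limits the precision. Nothing in the labels says that repeats came from separate extracts.

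Named were all 10 members, and the called members of other lists with the 4 largest changes and up to 2 uncalled ones. Also named were the 3 genes outside the 10 most like each member, and 7 fixed markers. Not all are printed. The members, lists and tests were chosen with earlier results of these data known. Of 179 list entries 11 were not matched. Alternatives covered scaling, probe set choice, dim genes, variance model, repeats, omitted pools, class boundaries, time axes and centring genes. The promoters came from a RefSeq table of GRCm38.p6.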

Additional observations from a re-analysis of the deposited data

Results flagged for a closer look

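Oit3 at E11.5 lay far from the other fetal pools, at 8.41 against 7.84 in the nearest of them, E14.5. The gap was 0.59 of the range of the 8 fetal pools. Both arrays of E11.5 were high, at 8.43 and 8.39. This was 1 of 20 groups examined (the postnatal and the fetal pools of each of the 10 genes), and the test used (Dixon's) picks out about 1 in 20 groups drawn from 1 distribution. The fetal pools are successive stages, so that rate need not apply to them.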

How the results depend on the processing

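Clec4g kept its postnatal call under all 27 alternatives (1.49 to 3.18), none of which used its flat probe set alone. Fcgr2b ranged from 0.65 to 2.10 and Stab2 from -0.088 to 1.25. Relative to macrophage genes, chosen after seeing the data, 1 of the 10 was higher and 1 lower (Lyve1 -1.15), against 1.85% and 74.7% of all genes, whose median was -1.14; Stab1 was at -0.86, Stab2 -0.088, Oit3 -0.95, Dnase1l3 -0.34, Gpr182 -0.78, Plvap -0.46 and Emcn -0.99. The number higher over fetal life, 3, became 5 under quantile normalisation and under housekeeping scaling and 1 with all probe sets averaged. The number higher at birth, 3, became 1 under quantile normalisation. Relative to pan-endothelial genes, 2 became 1 with all sets averaged and 1 without the _s_at and _x_at sets.

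Signs that turned belonged, Stab2 apart, to uncalled values, and their cause was not tested. For Lyve1, postnatal minus fetal, they were -0.018 (array medians equal), -0.0059 (all sets averaged), -0.028 (first arrays), -0.69 (Day0 as fetal) and, with pools left out in turn, -0.44 to 0.23. Emcn was at -0.018 without the stages with 1 array. Relative to pan-endothelial genes, Lyve1 was at 0.18 without those stages, and Oit3 at 0.0053 (quantile), 0.016 (all sets averaged) and 0.0074 (Pecam1, Cdh5 and Kdr). With pools left out, Oit3 ran from -0.091 to 0.072, Stab1 from -0.022 to 0.14 and Emcn from -0.13 to 0.00028. Gpr182 over fetal life was at 0.19 (quantile) and 0.24 (housekeeping). After birth, Emcn was at 0.17 (housekeeping) and Plvap at -0.14 (first arrays); with pools left out, Clec4g ran from -0.14 to 2.28 and Plvap from -0.47 to 0.72. At birth, Plvap was at -0.0027 (quantile) and Emcn at -0.028 (Day0 minus E17.5). At the adult step, Oit3 was at 0.045 (quantile) and Clec4g at -0.026 (array medians equal). For adult minus Day14, Clec4g was at -0.63, Fcgr2b -0.52, Dnase1l3 0.38, Gpr182 0.55, Plvap 0.33 and Emcn -0.31. With each repeat left out in turn, Plvap at birth ran from -0.012 to 0.37, and the adult step from -0.17 to 0.17 for Clec4g, -0.19 to 0.26 for Fcgr2b, -0.46 to 0.038 for Lyve1 and -0.30 to 0.26 for Oit3.

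With the replicate number as a replicate block, Fcgr2b at birth was at 0.94 and lost its call, Lyve1 was at 1.98 and Gpr182 at 1.13; at the adult step none was called, and over 25 arrays Stab2 was at 1.04 between the classes. Deviations of same-numbered arrays correlated at r over 0.1 for 38 of 55 pairs of stages, above 0 for 43, and from -0.57 to 0.73 in all. Since not every pair did, and the labels name no shared batch, the numbers were not taken to pair the arrays. The first array still had the higher mean intensity at 10 of 11 stages, and the higher value of Stab2 at 10 and of Oit3 at 10. Steps were not run with first arrays alone, and the birth step could not be run without the stages with 1 array. Dim probe sets limit Dnase1l3 and Emcn, and Clec4g read near the array medians at E11.5 and E12.5. Emcn was dropped by the filter on dim genes.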
